A study of Mus musculus with 8 samples.

Results

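Mitochondrial ribosomal proteins are the proteins that, with RNAs encoded in the mitochondrial genome, form the ribosome inside mitochondria. The genes described here are the rows of the table whose symbol starts with Mrpl or Mrps followed by a digit. There were 78 of them among the 17634 genes of the table, 49 with an Mrpl symbol and 29 with an Mrps symbol, and all 78 passed the filter on low counts that left 12908 genes to test. The selection used symbols alone and no measured value. It leaves out ribosomal proteins with other names, such as Ptcd3 and Dap3, which are given in a list of their own.

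The mice were of the C57BL/6N strain, and their small intestinal crypts were taken 3 days post irradiation. Crypts are the glands below the villi, where stem cells, dividing progenitors and Paneth cells lie. The 4 control libraries came from wild-type mice and the other 4 from miR-29ab1-/- mice, in which the gene pair for miR-29a and miR-29b-1, small RNAs that repress messenger RNAs, is deleted. All 8 libraries are from irradiated animals, so every difference below is one of genotype after irradiation. The labels do not say whether the deletion is in all tissues. Mir29a and Mir29b-1 were not analysed here, so their own levels did not check the genotype labels.

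The mitochondrial ribosome makes the few inner-membrane proteins of the respiratory chain and ATP synthase that the mitochondrial genome encodes. All of its proteins are encoded in the nucleus, made in the cytosol and imported, then assembled with mitochondrial ribosomal RNA into a large subunit, which joins amino acids, and a small subunit, which reads the messenger RNA. Many of them are homologues of bacterial ribosomal proteins and the rest are found only in mitochondria. In the intestine, dividing crypt cells and absorptive enterocytes both rely on mitochondria, and enterocytes are known for burning fatty acids.

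Wild-type libraries held 10719668 to 16231099 counts, of which the top 10 genes made up 4.69 to 5.12 percent. Knockout libraries held 9481201 to 14612798 counts, with 6.02 to 9.66 percent in their top 10 genes. In a table where 23.1 percent of tested genes were called lower and 24.2 percent higher, the levels of cell type markers also differed. All 20 enterocyte markers were called higher in the knockout, with summed levels of 3225 to 15184 CPM (counts scaled to a common library size) in wild type and 35978 to 115974 in the knockout. All 18 proliferation markers were called lower, from 3121 to 3676 CPM in wild type to 1095 to 1785 in the knockout. Of the crypt base stem cell markers, 6 of 10 were called lower (952 to 1285 CPM against 604 to 1056), and 4 of 10 Paneth cell markers were called higher (11880 to 16452 against 13390 to 42673). Goblet cell markers were called higher for 6 of 7 genes (1976 to 4590 against 9245 to 14959). Of the markers of other tissue, 0 of 6 tested fibroblast genes (summed 35.6 to 228 CPM against 34.5 to 271), 0 of 9 T cell and macrophage genes (36.7 to 163 against 89.7 to 631) and 0 of 1 tested smooth muscle gene (1.05 to 1.91 against 0.172 to 2.43) were called. Of 3 tested plasma cell markers, 1 was called lower (Sdc1) and 2 were not called, and the highest log2 fold change of the 3 was 0.13. Their sums did not overlap (246 to 313 CPM against 181 to 220). No list had a gene at 0 in all 8 libraries. The part of these cell types in the results that follow was not tested, and in bulk RNA fewer cells of a type and less RNA per cell cannot be told apart.

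The deleted gene pair encodes the guide strands miR-29a-3p and miR-29b-3p. Their sequences at this pair (RefSeq, GRCm38.p6, minus strand of chromosome 6, chr6:31062673-31062694 and chr6:31063025-31063047) show what a direct target would be read by. Whether other genes still make strands with the same seed in the knockout was not examined. The capitals mark the seed, bases 2 to 8, which is the same in both.
miR-29a-3p: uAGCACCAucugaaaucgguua
miR-29b-3p: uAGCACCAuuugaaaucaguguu
A match to this seed, TGGTGCT, stood in the longest annotated 3′ UTR of 11 of the 78 genes, 14.1 percent, against 16.8 percent of the 12649 tested genes with such a UTR (GENCODE M21, GRCm38). Of these 11 genes 10 fell in the knockout and Mrps14 was not called. Among all tested genes, 22.0 percent of those with a match and 23.6 percent of those without one were called lower. Of the genes named below for the smallest p, 4 carried a match. In Mrpl47 and Mrps5 it starts at bases 1124 and 2184 of the longest UTR. Their effective transcript lengths, worked out as described below, were only 754 and 1316 bases. Both matches thus lie beyond the length behind the measured values. The windows of 3 of the 4 genes follow, with the seed match in capitals, from chr3:32726464-32726470 (minus strand), chr2:127606037-127606043 (plus strand) and chr4:107055951-107055957 (minus strand) on GRCm38.
Mrpl47: ttattagaaggTGGTGCTttgtactcata
Mrps5: attaatcttagTGGTGCTgaacattcctg
Mrpl37: tcctgggacggTGGTGCTggagcctgggc

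Genes for mitochondrial ribosomal proteins were lower as a group in the knockout. Of the 78 genes, 54 fell and 0 rose by edgeR's quasi-likelihood test (Benjamini-Hochberg adjusted over all 12908 genes, threshold 0.05), which is 69.2 percent against 23.1 percent of all tested genes called lower. DESeq2 likewise called 54 lower and 0 higher, and at an unadjusted p under 0.05 in edgeR 60 were lower and 0 higher. The median log2 fold change, knockout over wild type, was −0.52 over the 78 genes and 0.034 over all genes tested. Values ran from −0.97 to 0.27, and 74 of the 78 were below 0. In 42 genes the highest knockout library lay below the lowest wild-type library, against 22.7 percent of all tested genes. The shift was broad and moderate: the genes that passed the test fell by 1.29-fold to 1.96-fold, 33 of the 78 fell at least 1.5-fold and 0 fell at least 2-fold. The labels do not say that each library is a separate animal, and the p-values rest on the variation among the libraries, which may be partly technical. Y-linked genes had 3 and 1 counts in replicate 4 of wild type and knockout, against 1285 to 2061 in the other libraries. The libraries of a genotype thus did not all come from the same animal, and how many animals they stand for is not given.

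**Figure D1:**
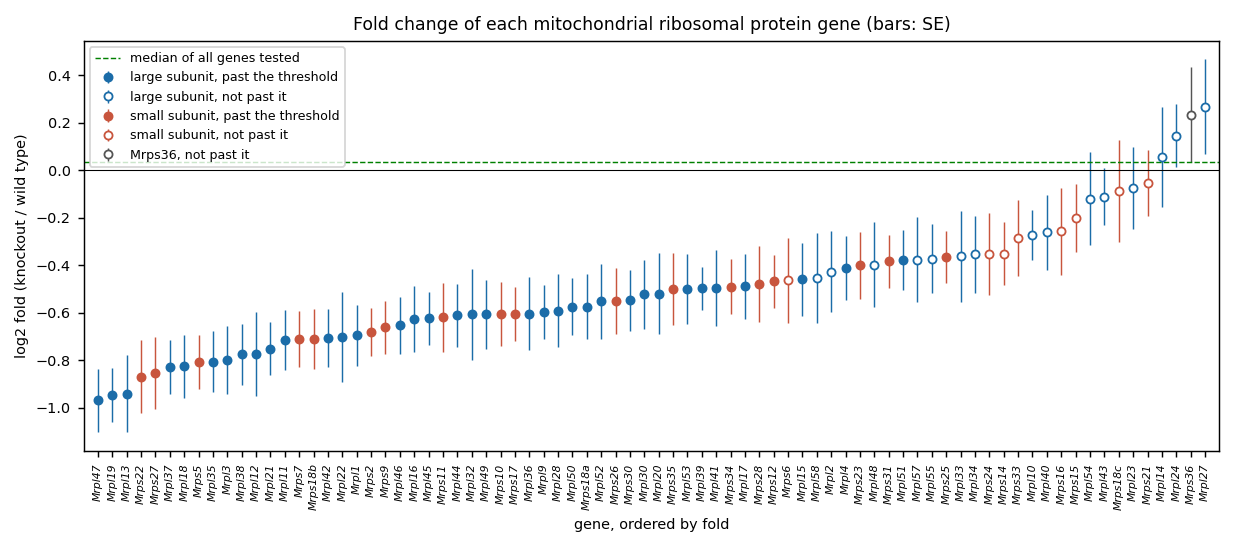
Log2 fold change, knockout over wild type, of each of the 78 genes, ordered by value and coloured by subunit, with bars of 1 standard error and a dashed line at the median of all genes tested (0.034). Filled points passed the threshold. The 54 filled points all lie below 0, and the 4 points above 0 are open (all 4 were below 0 with total counts as the scale).

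Summed over the 78 genes, the level was 4968, 5125, 4060 and 4459 CPM in wild-type replicates 1 to 4 and 3022, 3907, 3065 and 2972 CPM in knockout replicates 1 to 4. The 2 groups did not overlap, and the nearest libraries were wild-type replicate 3 and knockout replicate 2. The means were 4653 ± 487 and 3242 ± 445 (SD, n = 4), so the knockout stood 30.3 percent lower. As a share of all counts, with no scaling factor, the genes took 0.522, 0.533, 0.483 and 0.499 percent in wild type and 0.241, 0.322, 0.324 and 0.292 percent in the knockout. The mean share was 0.509 ± 0.0228 percent in wild type and 0.295 ± 0.0388 percent in the knockout (SD, n = 4), which is 42.1 percent lower. The larger fall in the share goes with TMM scaling factors of 1.04 to 1.19 in wild type and 0.798 to 1.06 in the knockout.

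**Figure D2:**
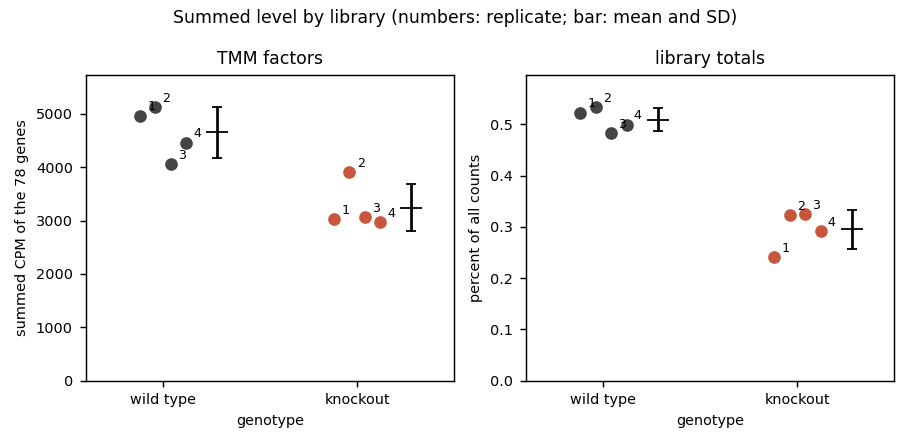
Summed level of the 78 genes in CPM with TMM factors (left) and their percent of all counts (right), with a point per replicate and the mean and SD of 4 libraries per genotype. The wild-type libraries lie between 4060 and 5125 CPM and the knockout libraries between 2972 and 3907 CPM.

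The genes moved together from library to library. Knockout replicate 2 was the highest knockout library in 74 of the 78 genes, and wild-type replicate 3 was the lowest wild-type library in 67 of the 78. Knockout replicate 2 also had the highest summed Paneth marker level of all libraries (42673 CPM). Its crypt base stem cell marker level was the highest of the knockout libraries as well (1056 CPM, against 604 to 964 in the others). By share of counts it did not stand apart, at 0.322 percent beside 0.324 percent in knockout replicate 3. Without knockout replicate 2 the test called 67 genes lower and the median was −0.69. Its part in the spread was not otherwise tested.

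**Figure D3:**
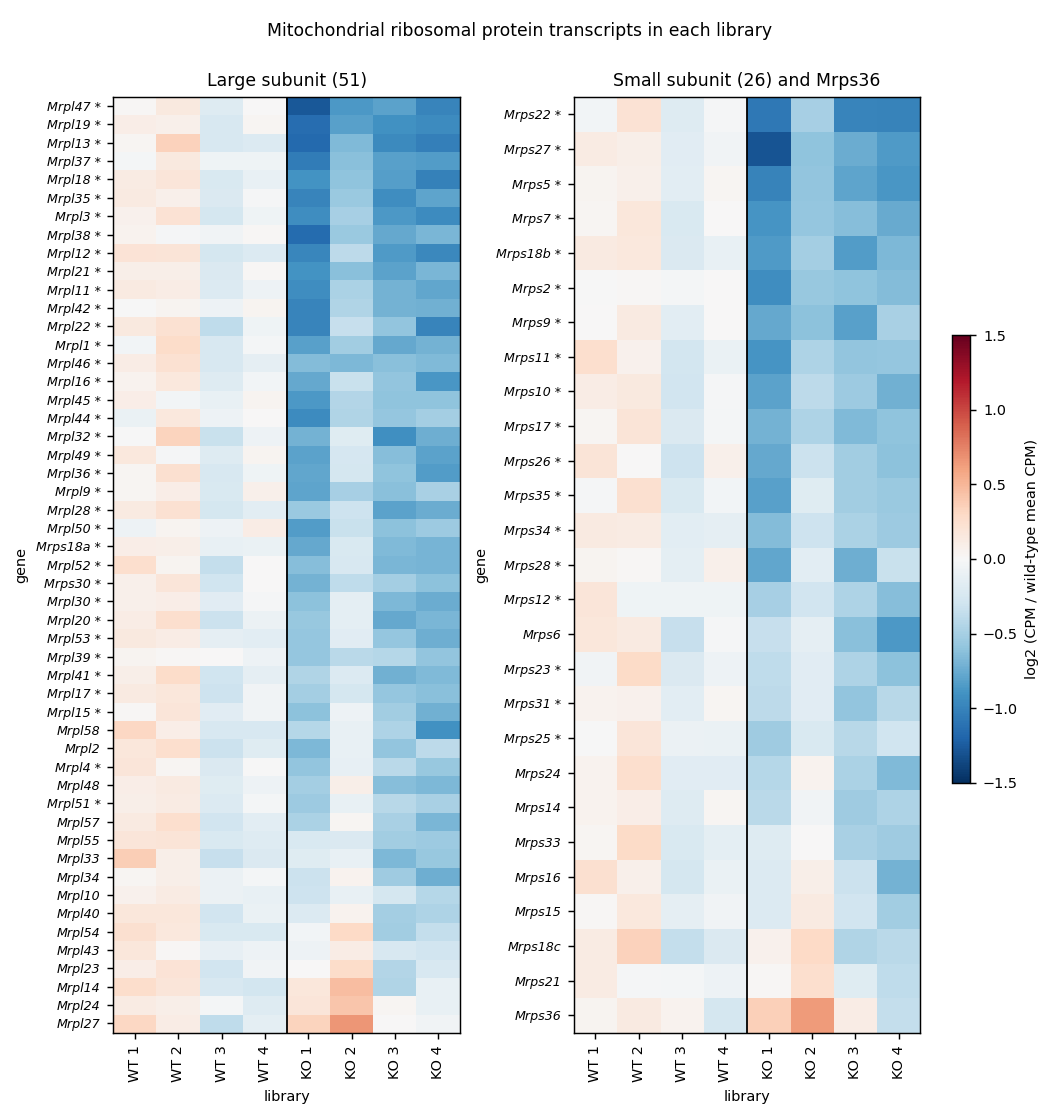
Log2 level of each gene in each library relative to the gene's wild-type mean, with genes as rows and wild-type and knockout replicates 1 to 4 as columns. An asterisk marks the 54 genes past the threshold, and the knockout columns are mostly below the wild-type mean, least so in replicate 2.

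The large subunit holds the peptidyl transferase centre and the tunnel through which the new protein leaves. Of its 51 genes, which include Mrps30 and Mrps18a despite their symbols, 36 fell and 0 rose, with a median of −0.55 and 26 genes without overlap between the groups. Mrpl47, the homologue of a bacterial protein at the tunnel exit, had the lowest log2 fold change of the 78. It stood at 35.9, 39.1, 31.0 and 35.6 CPM in wild type and at 14.7, 19.4, 20.3 and 17.9 CPM in the knockout (−0.97 ± 0.13 SE, 1.96-fold lower, adjusted p = 0.00116 by edgeR). Every knockout library was well below every wild-type library. Exons of Mrpl47 (chromosome 3, 32725397 to 32737605) overlap those of Actl6a and Ndufb5 on the opposite strand, and the strandedness of the libraries is not given in the sources used here, so reads of such pairs cannot be told apart.

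Mrpl19, homologue of a bacterial protein at the interface of the subunits, had the smallest p of the 78 genes. Its levels were 79.4, 78.3, 62.8 and 75.7 CPM in wild type and 33.6, 42.2, 39.6 and 38.5 CPM in the knockout (−0.95 ± 0.12 SE, 1.93-fold lower, edgeR adjusted p = 0.00108). The groups were far apart, and no knockout library reached the lowest wild-type value. Mrpl19 lies on chromosome 6 (81957851 to 81965958, minus strand, GRCm38) and shares exon sequence with Gcfc2 on the opposite strand. Mrpl37, a mitochondria-specific protein, overlaps no other exon (chromosome 4, 107055874 to 107066868, minus strand). It was at 87.2, 98.7, 84.7 and 85.0 CPM in wild type and 42.9, 57.5, 50.6 and 49.6 CPM in the knockout, 1.77-fold lower (edgeR adjusted p = 0.00116). All 4 knockout libraries were below all 4 wild-type libraries.

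The protuberance at the top of the large subunit includes Mrpl18, whose bacterial relative holds the small ribosomal RNA of that subunit, and the mitochondria-specific Mrpl38. Mrpl18 fell from 94.5 ± 12.7 to 53.3 ± 6.50 CPM (SD, n = 4, 1.77-fold, edgeR adjusted p = 0.00163). Mrpl38 fell from 83.2 ± 2.68 to 48.6 ± 8.11 CPM (1.71-fold, edgeR adjusted p = 0.00186). Both groups of libraries were separate in both genes. Of the other large-subunit genes with the smallest p, Mrpl21 fell from 48.7 ± 4.66 to 28.9 ± 2.43 CPM (edgeR adjusted p = 0.00132) and Mrpl35 from 54.0 ± 5.71 to 30.9 ± 4.22 CPM (edgeR adjusted p = 0.00161). Exons of Mrpl18 overlap those of Tcp1 and exons of Mrpl21 those of Ighmbp2.

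Mrpl12 forms the flexible stalk that recruits translation factors and is also known to bind the mitochondrial RNA polymerase. It was at 217, 215, 156 and 164 CPM in wild type and 95.7, 143, 104 and 96.3 CPM in the knockout. Replicates 1 and 2 were the high ones in wild type and replicate 2 in the knockout, and the groups came close without overlapping. The fall was 1.71-fold (−0.77 ± 0.18 SE, edgeR adjusted p = 0.00689). Mrpl45, which anchors the ribosome to the inner membrane beside the tunnel exit, was at 86.5, 78.6, 74.5 and 82.5 CPM in wild type and 44.3, 59.2, 52.9 and 53.0 CPM in the knockout. These values were well separated, and Mrpl45 fell 1.54-fold (−0.62 ± 0.11 SE, edgeR adjusted p = 0.00231).

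Mrps30 was named as a small-subunit protein and is now placed in the large subunit. It fell from 58.7 ± 7.89 to 40.2 ± 3.98 CPM (SD, n = 4, 1.46-fold, edgeR adjusted p = 0.00712). Its exons overlap those of B430218F22Rik on the opposite strand. Mrpl58 is a peptidyl-tRNA hydrolase built into the large subunit that frees stalled ribosomes. Its levels were 62.6, 54.0, 42.8 and 43.0 CPM in wild type and 37.5, 46.7, 36.7 and 26.9 CPM in the knockout, so the groups overlapped through knockout replicate 2. The log2 fold change was −0.45 ± 0.19 SE and did not pass the test (edgeR adjusted p = 0.0745). With the replicate number as a block in the fit, Mrpl58 passed (edgeR adjusted p = 0.0173).

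The small subunit decodes the messenger RNA. Of its 26 genes, 18 fell and 0 rose, with a median log2 fold change of −0.48, and in 16 the groups did not overlap. Mrps5, homologue of a bacterial protein tied to decoding accuracy, was at 113, 116, 98.3 and 111 CPM in wild type and 54.7, 72.8, 63.3 and 59.8 CPM in the knockout (1.75-fold lower, edgeR adjusted p = 0.00121). Mrps2 was at 67.7, 68.8, 66.6 and 68.0 CPM in wild type, the tightest wild-type group of the genes named here, and at 35.5, 45.8, 44.7 and 43.2 CPM in the knockout (1.60-fold lower, edgeR adjusted p = 0.00139). In both genes the knockout libraries all lay below the wild-type ones. Mrps7, whose bacterial relative starts assembly of the small subunit's head, fell from 68.6 ± 7.74 to 41.9 ± 3.94 CPM (SD, n = 4, 1.64-fold, edgeR adjusted p = 0.00180). Exons of Mrps7 overlap those of Gga3 and Mif4gd on the opposite strand. Mrps25 had the smallest fall among the genes of the 78 that passed, from 61.4 ± 5.71 to 47.7 ± 4.36 CPM (1.29-fold, edgeR adjusted p = 0.0215), and lost its call without wild-type replicate 1 (adjusted p = 0.0505) or replicate 2 (adjusted p = 0.0601). Its exons overlap those of Nr2c2 on the opposite strand.

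The sum over the large-subunit genes was 2.31 ± 0.0473 times that over the small-subunit genes in wild type and 2.29 ± 0.0572 times in the knockout (SD, n = 4), so the balance between the subunits differed by less than the spread between libraries. The genes were also counted by ancestry as the ribosomal protein nomenclature has it, in which Mrps18a and Mrps18b are classed as mitochondria-specific. Of the 46 genes classed with a bacterial homologue 30 fell (median −0.56), and of the 31 classed as mitochondria-specific 24 fell (median −0.50). Within the large subunit the counts were 21 of 30 and 15 of 21, and within the small subunit 9 of 16 and 9 of 10. With Mrps18a and Mrps18b counted as bacterial homologues, 32 of 48 and 22 of 29 fell (medians −0.58 and −0.50), and within the small subunit 10 of 17 and 8 of 9. The difference between these shares was not tested.

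Mammals carry 3 relatives of bacterial ribosomal protein S18: Mrps18a, placed in the large subunit, and Mrps18b and Mrps18c, placed in the small subunit. Mrps18a was at 51.2, 50.8, 44.0 and 44.3 CPM in wild type and 27.9, 40.5, 30.1 and 29.4 CPM in the knockout (1.49-fold lower, edgeR adjusted p = 0.00828). Mrps18b was at 101, 103, 79.5 and 85.8 CPM in wild type and 51.5, 64.9, 51.7 and 58.2 CPM in the knockout (1.63-fold lower, edgeR adjusted p = 0.00229). Both had separate groups. Mrps18c was at 29.7, 34.7, 21.4 and 23.6 CPM in wild type and 28.6, 33.5, 20.0 and 20.6 CPM in the knockout. Its libraries overlapped over almost their whole range, and its log2 fold change was −0.09 ± 0.21 SE (edgeR adjusted p = 0.759). Whether the 3 genes differ from each other in response was not tested.

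The 24 genes that did not pass comprised 15 of the large subunit, 8 of the small subunit and Mrps36. With the replicate number as a block 13 of the 24 passed, all lower, which leaves 11. Nearest the threshold, Mrps23 passed (edgeR adjusted p = 0.0418) and Mrps14 did not (edgeR adjusted p = 0.0541, and 0.0205 with the block). With Mrps14, 18 of the 24 had log2 fold changes from −0.46 (Mrps6, edgeR adjusted p = 0.0575, and 0.0145 with the block) to −0.054 (Mrps21), and Mrpl58 and Mrps18c are given above. The 4 genes with a log2 fold change above 0 were Mrpl27, Mrps36, Mrpl24 and Mrpl14. Mrps36, named as a ribosomal protein, is now regarded as a part of the oxoglutarate dehydrogenase complex of the citric acid cycle. It was at 25.2, 26.9, 25.4 and 20.4 CPM in wild type and 31.3, 38.2, 26.4 and 19.1 CPM in the knockout, with overlapping groups (0.24 ± 0.20 SE, edgeR adjusted p = 0.360). Mrpl27, near the peptidyl transferase centre in bacteria, had means of 33.8 ± 7.01 and 40.6 ± 9.72 CPM (edgeR adjusted p = 0.295), Mrpl24 of 60.5 ± 5.78 and 66.8 ± 10.6 CPM (adjusted p = 0.391) and Mrpl14 of 25.5 ± 4.89 and 26.5 ± 7.08 CPM (adjusted p = 0.839). With total counts as the scale, none of the 4 stayed above 0: the log2 fold changes were −0.057 for Mrps36, −0.013 for Mrpl27, −0.13 for Mrpl24 and −0.23 for Mrpl14. Mrpl27, Mrpl24 and Mrpl14 were named after their values were seen, and their exons overlap those of Eme1, Rrnad1 and Tmem63b.

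Levels can be compared between genes per length, as FPKM (fragments scaled to transcript length and library size, as the authors gave them). The 3 highest of the 78 by mean FPKM were Mrpl52, Mrpl12 and Mrpl42. Mrpl52, a mitochondria-specific protein of the large subunit, had 258 ± 30.1 FPKM in wild type and 145 ± 19.0 in the knockout, Mrpl12 had 248 ± 31.4 and 121 ± 22.5, and Mrpl42 had 226 ± 9.10 and 115 ± 21.5 (SD, n = 4). Within each genotype the spreads of these 3 overlapped, so their order is not set beyond the error. The 3 lowest by the mean over the 8 libraries were Mrps25 (11.3 ± 0.694 FPKM in wild type), Mrpl17 (14.6 ± 1.35) and Mrpl19 (16.6 ± 0.91). Mrpl19 and the next gene, Mrpl35, did not differ beyond their spread (means over the 8 libraries of 11.9 and 12.2 FPKM). High and low genes both fell. On the CPM scale Mrpl42 fell 1.63-fold (edgeR adjusted p = 0.00203), Mrpl52 1.47-fold (edgeR adjusted p = 0.0174) and Mrpl17 1.40-fold (edgeR adjusted p = 0.0165). The groups of Mrpl52 and Mrpl17 overlapped, and both lost their call without wild-type replicate 1 (adjusted p = 0.0528 and 0.0503).

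The counts were also split by transcript length. By effective length, worked out from the ratio of counts to FPKM, 6 of 15 genes under 600 bases fell (median −0.35), 18 of 29 from 600 to 1000 bases (median −0.55), 16 of 18 from 1000 to 1500 bases (median −0.61) and 14 of 16 over 1500 bases (median −0.59). Among all tested genes the same bins had 21.1, 28.1, 26.7 and 22.2 percent called lower. The difference between bins was not tested. Mrpl14 and Mrps18c, with effective lengths of 485 and 384 bases, are among the short genes that did not fall. Mrpl52, at 294 bases, fell. Across the 78 genes, which share the same libraries, Spearman's rho between length and log2 fold change was −0.34, against 0.05 across all tested genes.

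**Figure D4:**
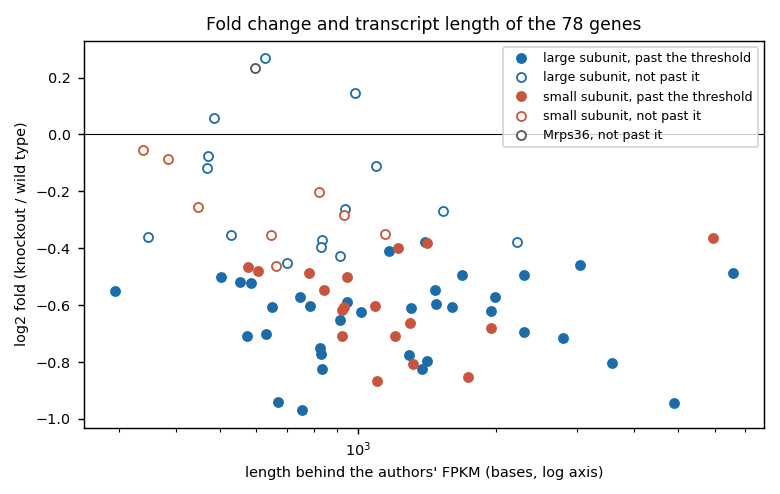
Effective length in bases (log axis) against log2 fold change, knockout over wild type, for the 78 genes, with filled points past the threshold. Of the 34 genes over 1000 bases 30 are filled, against 24 of the 44 shorter ones.

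Promoters of these genes are known for sites of the factors NRF-1, GABP (an ETS factor) and YY1, which act on many nuclear genes for mitochondrial proteins. RefSeq promoter windows of 300 bases, 250 before and 50 after the start (GRCm38.p6), were matched for 69 of the 78 genes, and 4 motifs were searched on both strands. NRF-1 (GCGCA, any base, then GCGC) was found in 13 of the 69 genes, 18.8 percent, against 11.1 percent of tested genes and 5.19 percent of all genes with such a window. The ETS motif (CCGGAAG) was found in 26, 37.7 percent against 19.7 and 9.93 percent. YY1 (AAGATGGCG) was found in 8, 11.6 percent against 3.49 and 1.64 percent. The E-box of the Myc family (CACGTG) was found in 5, 7.25 percent against 11.5 and 8.09 percent. Genes that fell and genes that were not called both held them: NRF-1 in 10 of 46 and 3 of 23, ETS in 15 of 46 and 11 of 23, YY1 in 7 of 46 and 1 of 23, and the E-box in 3 of 46 and 2 of 23. A match is a match of letters and was not shown to be bound.

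Windows of 3 genes that fell show these layouts, with motif matches in capitals. Mrpl45 (chr11:97315466-97315765, plus strand) has 3 NRF-1 matches, Mrps27 (chr13:99344536-99344835, plus strand) has 1 ETS match, on the opposite strand as printed, and 1 YY1 match, and Mrpl37 (chr4:107066817-107067116, minus strand) has 1 E-box and 1 YY1 match. No printed matches overlap each other.
Mrpl45: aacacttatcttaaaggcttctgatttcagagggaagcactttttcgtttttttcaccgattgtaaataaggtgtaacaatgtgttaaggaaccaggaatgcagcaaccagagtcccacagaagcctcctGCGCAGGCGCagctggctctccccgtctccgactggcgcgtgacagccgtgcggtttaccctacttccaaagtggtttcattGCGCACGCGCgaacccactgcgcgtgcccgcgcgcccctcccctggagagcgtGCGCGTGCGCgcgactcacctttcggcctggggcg
Mrps27: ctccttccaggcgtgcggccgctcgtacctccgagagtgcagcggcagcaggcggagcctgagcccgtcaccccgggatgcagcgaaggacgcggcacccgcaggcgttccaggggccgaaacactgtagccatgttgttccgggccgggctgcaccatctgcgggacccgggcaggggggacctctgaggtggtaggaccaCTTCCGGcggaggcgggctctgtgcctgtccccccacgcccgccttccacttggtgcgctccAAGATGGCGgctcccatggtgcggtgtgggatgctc
Mrpl37: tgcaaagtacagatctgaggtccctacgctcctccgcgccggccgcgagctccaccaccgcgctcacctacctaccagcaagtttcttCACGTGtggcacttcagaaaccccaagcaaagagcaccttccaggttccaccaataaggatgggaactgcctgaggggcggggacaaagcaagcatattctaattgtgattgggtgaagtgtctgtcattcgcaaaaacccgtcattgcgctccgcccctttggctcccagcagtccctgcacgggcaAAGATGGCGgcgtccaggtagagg
Mrps27, a mitochondria-specific small-subunit protein with RNA-binding repeats, was named for its promoter. It was at 72.7, 70.8, 59.3 and 64.2 CPM in wild type and 27.2, 43.8, 39.8 and 37.0 CPM in the knockout, 1.81-fold lower with separate groups (edgeR adjusted p = 0.00228).

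Of 9 factors linked to these promoters and to mitochondrial gene expression, 2 rose and 3 fell, shares of 22.2 and 33.3 percent beside 24.2 and 23.1 percent of all tested genes. Ppargc1a, the coactivator PGC-1α, rose 4.05-fold (edgeR adjusted p = 0.00108), and Esrra, the nuclear receptor it works with, rose 1.83-fold (edgeR adjusted p = 0.00235). Pprc1, a coactivator related to PGC-1α that is induced in growing cells, fell 1.97-fold (edgeR adjusted p = 0.00453). Myc, a growth factor-responsive transcription factor, fell 1.60-fold and Nrf1, which encodes NRF-1, fell 1.30-fold (edgeR adjusted p = 0.00701 and 0.0132). The count of 3 lower became 5 with upper-quartile factors and 6 with total counts.

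The other genes of mitochondrial translation, in lists of known members, fell alongside. A list of 6 genes held 5 mitochondrial ribosomal proteins with other symbols and Oxa1l, the membrane insertase that the ribosome docks on. Of the 6, 4 fell and 0 rose (median −0.54), among them Ptcd3, an RNA-binding protein of the small subunit (1.88-fold lower, edgeR adjusted p = 0.00157), Gadd45gip1, a large-subunit protein at the tunnel exit (1.76-fold lower, edgeR adjusted p = 0.00579), and Chchd1 of the small subunit (1.58-fold lower, edgeR adjusted p = 0.0144). Oxa1l was the other one, named after its value was seen (1.33-fold lower, edgeR adjusted p = 0.0291). Dap3 (log2 fold change −0.36, edgeR adjusted p = 0.0509) and Aurkaip1 (−0.17, adjusted p = 0.381) did not pass. Of 26 assembly factors 15 fell and 0 rose (median −0.49), and 9 fell without wild-type replicate 1. Fastkd2, an RNA-binding protein needed for the large subunit, fell 1.95-fold (edgeR adjusted p = 0.00176). Noa1, a GTPase for small-subunit assembly, fell 1.86-fold (edgeR adjusted p = 0.00199).

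Of 14 translation factors 11 fell and 0 rose (median −0.59). The elongation factors Gfm1 (1.73-fold lower), Tsfm (1.74-fold lower) and Tufm (1.76-fold lower) had the smallest p, with edgeR adjusted p of 0.00122, 0.00163 and 0.00168. Of 17 mitochondrial aminoacyl-tRNA synthetases, the enzymes that load tRNAs with amino acids, 14 fell and 0 rose (median −0.59), with Yars2 1.92-fold and Vars2 1.55-fold lower (edgeR adjusted p = 0.00185 and 0.00327). Over these 4 lists 44 of 63 genes fell and 0 rose, a share of 69.8 percent beside 69.2 percent of the 78 ribosomal protein genes.

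Genes of mitochondrial transcription and the nucleoid, which holds mitochondrial DNA, were mixed. Of 12, 7 fell and 2 rose (median −0.49), and 3 fell without wild-type replicate 4 and 4 without knockout replicate 1. Tfb2m, a transcription initiation factor, fell 1.63-fold and Ssbp1, which coats single-stranded mitochondrial DNA, fell 1.65-fold (edgeR adjusted p = 0.00281 and 0.00316). Mterf2, of the mitochondrial termination factor family, rose with a log2 fold change of 1.15, and Polg2, a subunit of the mitochondrial DNA polymerase, with one of 0.98 (edgeR adjusted p = 0.00375 and 0.00603). Messenger RNAs of the mitochondrial genome itself were not analysed here, since none of the symbols listed for them was found among the genes of the table.

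A pair of lists, drawn by matching gene symbols alone, was added after the results for the 78 genes were seen, as a comparison. Of 75 cytosolic ribosomal proteins 53 fell and 0 rose, with a median of −0.50, close to that of the mitochondrial ones. That count moved more between settings: it was 15, 18 and 29 without wild-type replicates 1, 2 and 4, 22, 22 and 24 without knockout replicates 1, 3 and 4, and 6 with replicates 1 to 3 of each genotype, while for the 78 mitochondrial genes the same settings gave 38 to 47. Complex I is a respiratory chain complex that also contains products of the mitochondrial ribosome. Of 36 nuclear-encoded complex I subunits by symbol, 1 fell (Ndufs1) and 4 rose (Ndufa1, Ndufv3, Ndufa6 and Ndufa3), with a median of 0.02. The shares, 2.78 percent lower and 11.1 percent higher, were both below the 23.1 and 24.2 percent of all tested genes. With total counts as the scale, 16 complex I genes were lower and 1 higher, and with the replicate block 5 were lower and 7 higher. Without knockout replicate 2 the counts were 7 and 1. The count of 4 higher became 2 without wild-type replicate 3 and 1 without wild-type replicate 4 or knockout replicate 1.

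**Figure D5:**
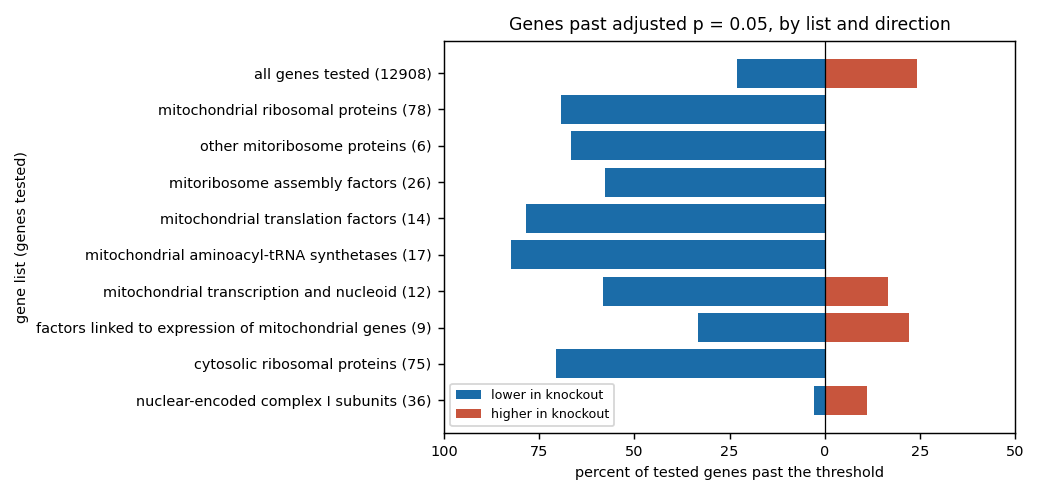
Percent of tested genes of each list called lower (left of 0) and higher (right of 0) in the knockout by edgeR at an adjusted p under 0.05, with the same for all genes tested (23.1 percent lower and 24.2 percent higher). The bar of the 78 genes reaches 69.2 percent on the lower side and 0 on the higher side.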

How the data were processed

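RNA extracted with TRIzol from small intestinal crypts was sequenced as 8 libraries, 4 per genotype, per the labels. The submitters' processing notes name HISAT2 and DESeq2 without saying what each did. Not given in the sources used here are the counter, the genome build, the annotation, the strandedness and the radiation dose. The authors deposited estimated counts per gene (8.04 to 9.18 percent of values per library were not whole), which were rounded. A second set of deposited columns was taken to be FPKM, because each value equals the count divided by the library total and a length that stays nearly the same for a gene in all libraries (over the 78 genes, the highest over the lowest was 1.04 in the median and at most 1.12); the median length was used, and the authors' averages were not used.

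The test was edgeR 4.0.16 (R 4.3.3; filterByExpr, TMM, glmQLFit, glmQLFTest, genotype alone), with Benjamini-Hochberg adjustment over 12908 genes and a threshold of 0.05. It was tested on simulated data first. Each standard error (SE) was taken as the absolute log2 fold change over the square root of F. Alternatives were upper-quartile and total-count scaling, no filter and a mean of at least 50 counts, a replicate block, DESeq2 1.42.0, limma 3.58.1 on log2(FPKM + 0.5), replicates 1 to 3 alone, and leaving out each library.

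Same-numbered libraries of the genotypes deviated together (r of 0.50, 0.31, 0.49 and 0.52; differently numbered ones −0.48 to 0.45), which meets the rule set for pairs. No label says what the number stands for, and the block entered as an alternative only; all other values come from the fit without it. Replicate 4 of both genotypes had 3 and 1 counts from Y-linked genes, against 1285 to 2061 in the other 6 libraries.

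The 78 genes, the lists and the settings were chosen with earlier results of these data known. Genes were named by a rule: the 10 smallest p among those that passed, the 3 highest and 3 lowest by mean FPKM, the fixed genes Mrpl12, Mrpl45, Mrpl58, Mrps30, Mrps18a, Mrps18b, Mrps18c and Mrps36, and up to 3 of each other list by smallest p. Others are named as seen in the data, and 1 gene that the rule takes is not reported here. Subunit and ancestry classes are textbook assignments. Promoters and microRNAs were read from RefSeq (GRCm38.p6), gene positions and UTRs from GENCODE M21 (GRCm38).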

Additional observations from a re-analysis of the deposited data

Results flagged for a closer look

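In 2 of the 46 groups of 4 libraries examined, 1 library stood apart from the other 3 by more than Dixon's 95 percent limit, which chance passes in about 1 of 20 groups. The summed level of the 78 genes in knockout replicate 2 was 3907 CPM, against 2972 to 3065 CPM in the other knockout libraries. Mrpl52 in the same library was at 57.9 CPM, against 42.1 to 44.0 CPM in the others. As a share of counts this library (0.322 percent) was level with knockout replicate 3 (0.324 percent), and its TMM factor was 0.825 against 1.06 there.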

How the results depend on the processing

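In every setting run, 0 of the 78 genes were called higher and 38 or more were called lower. The count lower was 64 with upper-quartile factors, 73 with total counts, 54 without a filter, 54 at a mean of at least 50 counts, 54 by DESeq2, 73 by limma on FPKM and 38 with replicates 1 to 3 of each genotype. Leaving out 1 library gave 41 (without wild-type replicate 1) to 67 (without knockout replicate 2), with medians of −0.49 to −0.69. With the replicate block, 67 genes were lower and the median was −0.53; 13 of the 24 uncalled genes passed, Mrpl58 among them. Of the 54 genes, 37 were lower in every alternative, 40 in every fit without 1 library, and none changed sign. The median log2 fold change was −0.80 with total counts and −0.79 by limma on FPKM, where the median of all genes was −0.23 and −0.21; relative to all genes the values were −0.57 and −0.58, against −0.55. With total counts 31.1 percent of all genes were lower and 16.2 percent higher, against 23.1 and 24.2 percent. Mrps18c ranged from −0.38 (limma on FPKM) to 0.044 (without wild-type replicate 2). It was −0.37 with total counts, −0.29 without knockout replicate 2 and 0.014 without knockout replicate 3. Mrps36 turned to −0.057 with total counts and −0.080 by limma on FPKM. Mrpl58 passed with upper-quartile factors (adjusted p = 0.0303), total counts (0.00645), limma (0.00421) and without knockout replicate 2 (0.0178). With replicates 1 to 3 alone, Mrpl52 (0.0741) and Mrpl17 (0.0616) did not pass. In that setting assembly factors gave 9 lower against 15 and transcription and nucleoid genes 4 against 7. By limma, 7 of the factors linked to mitochondrial gene expression were lower, against 3. For complex I subunits the block gave 5 lower and 7 higher, and limma 16 and 1. In the fit reported, no fall smaller than 1.29-fold was called in the 78 genes; with the block Mrpl40, at 1.20-fold, was called.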

Other observations

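The 78 genes lie on 17 chromosomes (GENCODE M21, GRCm38), and exons of 33 of them overlap exons of another gene, a protein-coding one for 23. Mrpl46 and Mrps11 overlap each other on opposite strands. Of the 45 genes with no such overlap 32 fell, and of the 55 with no protein-coding overlap 38 fell, against 54 of all 78. Non-whole counts may come from reads shared between genes (the counter is not given). They occurred in 9 of the 78 genes, with Mrpl19, Mrpl35 and Mrps25 among those that fell. Of the uncalled genes, Mrpl24 and Mrpl43 had such counts in 8 libraries and Mrpl27 in 3.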
